A study of Picea abies with 48 samples.

Results

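The late-rising genes described here are 200 of the 70736 gene models counted in Norway spruce (Picea abies) hypocotyls after grafting. They were chosen by their levels on 3 sampling days. For each gene, counts scaled to a common library total (CPM) were averaged over the 3 replicates of a group, 0.5 was added and log2 was taken, and d is the value in scion or rootstock minus that in intact plants of the same day. The 54629 genes with d between -1 and 0.5 in both tissues at 1 day after grafting (DAG) were ranked by the smallest of their 4 d values at 14 and 28 DAG, and the first 200 were taken, leaving out MA_316475g0010, MA_10048467g0010 and MA_10426489g0020. Levels at 1, 14 and 28 DAG therefore chose the members and are given as descriptions without a test. Libraries of day 0, 3 DAG and 7 DAG had no part in the choice, and every test of the members below rests on them.

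Plants were wild-type seedlings of the seed source FP-96 Skogsgård. In homografts, the shoot of one seedling (the scion) was joined at the hypocotyl to the rooted base of another (the rootstock) with a silicon collar, and intact plants were not grafted. Grafted tissue was taken at 1, 3, 7, 14 and 28 DAG, about 1 mm from the scion and 1 mm from the rootstock next to the junction. Intact plants gave 2 mm of hypocotyl at day 0 and on each of those days. Each of the 16 groups had 3 replicates with 5 plants pooled in each. In pooled tissue pieces, a change in the number of cells of a type and a change in RNA per cell cannot be told apart.

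A graft heals in steps: cut surfaces adhere, callus fills the gap, and phloem and xylem strands are rebuilt across the junction. Enzymes that cut and rebuild pectin, xyloglucan and cellulose loosen and re-seal the walls of neighbouring cells, and laccases polymerise lignin in the walls of new xylem. Transcripts that stand above the intact level weeks after the cut belong to the period in which the union matures.

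Counted reads numbered 11511598 to 26780688 in the 18 intact libraries, 12850978 to 23256697 in the 15 of scion and 15015857 to 27687377 in the 15 of rootstock. No 2 replicates of a group agreed within sampling noise, since the chi-square per gene between them was 3.18 to 15.9. The low-count filter of edgeR kept 38436 genes, and all 200 members passed it. It used all 16 groups, so a member could pass on the late grafted groups that chose it. At 3 DAG, 10 members had at most 3 counts in both scion and intact plants, and 13 in both rootstock and intact plants. A gene is called higher here where edgeR's quasi-likelihood test gave an adjusted p below 0.05 with a fitted log2 fold change over 1, and lower where the change was under -1. Of the members, 62 are listed in the supplementary tables of the study and 51 carry a description there, while 149 are known by identifier alone. Each of 5 genome scaffolds holds a pair of members.

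The values that chose the members were spread widely. The smallest of the 4 late d values was 3.42 in MA_10101473g0010, the first in rank, and 0.9162 and 0.9159 in MA_116931g0010 and MA_8134388g0010, the last inside. The first genes outside, MA_942247g0010 and MA_849210g0010, stood at 0.9130 and 0.9078. The median d over the members ran from 0.05 at 1 DAG through 0.50 at 3 DAG and 1.26 at 7 DAG to 1.73 at 14 DAG and 1.52 at 28 DAG in scion, and from -0.10 through 0.06 and 0.67 to 1.53 and 1.41 in rootstock. Mean CPM was highest at 28 DAG in 114 members in scion and 122 in rootstock, at 14 DAG in 59 and 64, and at 7 DAG or before in the rest. In each tissue, d was larger at 28 than at 14 DAG in 82 members.

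**Figure D1:**
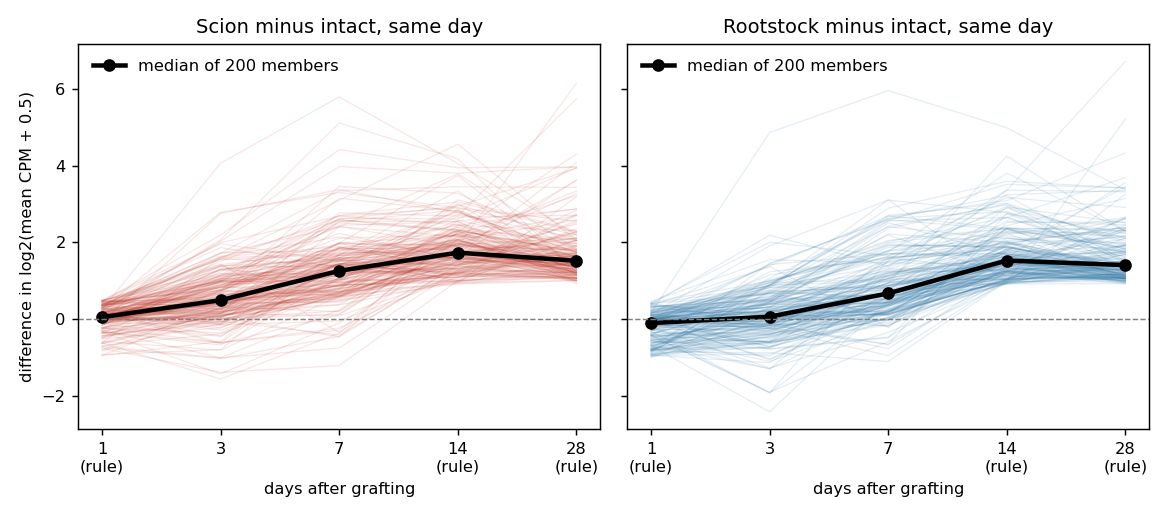
Difference from intact plants of the same day (d, log2 of mean CPM + 0.5) for the 200 members by day after grafting, in scion and in rootstock. Each thin line is a member and the black line is the median, which reaches 1.73 in scion and 1.53 in rootstock at 14 DAG; days 1, 14 and 28 chose the members.

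A late difference can come from a rise in the graft or a fall in the intact plant, so both were counted. Between 1 and 14 DAG, log2(mean CPM + 0.5) went up by more than 1 in both grafted tissues in 131 members, and in 113 of these the intact value moved by at most 1. In 28 members the intact value went down by more than 1 over those days, and in 17 of them neither grafted tissue went up by more than 1. Between 1 and 28 DAG, both grafted tissues went up by more than 1 in 146 members. Most members were scarce in intact plants: 129 had a mean below 1 CPM at 14 DAG, a level that entered the rule. The share of all genes below 1 CPM there was not counted. Over all groups together, 144 members had a mean of 1 CPM or more, as had 31296 of the 70736 gene models.

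The label of a late rise held for days 14 and 28, which defined it, but most members were already above the intact level at 7 DAG. In scion at 7 DAG, 146 of the 200 members were called higher than in intact plants (73.0%) and 1 was called lower, where 10.8% of all genes tested were called higher and 7.23% lower. In rootstock at 7 DAG, 93 were called higher (46.5%) and 4 lower, where the shares over all genes were 7.55% and 3.93%. The 4 rootstock falls became 2 without rootstock replicate 1 or 2 and 1 without intact replicate 1, and the single scion fall became 2 without scion replicate 2 or intact replicate 1. The median log2 fold change of the members was 1.91 in scion and 1.60 in rootstock, beside 0.07 and 0.00 over all genes. With members that had a group without reads set at their bound (3 counts for the group without reads), these medians were 1.81 and 1.20. Scaling by library size alone, in place of edgeR's trimmed mean of M values, moved the median of all genes in scion to 0.22.

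The same comparison at 3 DAG gave fewer calls. In scion, 70 members were called higher (35.0%) and 7 lower (3.5%), where 9.82% and 7.56% of all genes were called. In rootstock, 39 were called higher (19.5%) and 22 lower (11.0%), where the shares over all genes were 9.56% and 10.1%. The median log2 fold change was 0.98 in scion and 0.24 in rootstock, or 0.87 and 0.19 at the bounds, beside 0.04 and 0.01 over all genes. The 7 scion falls became 4 without scion replicate 2 or intact replicate 1 of that day.

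Counting members by the first day of a call, 83 were called higher at 3 DAG in at least 1 tissue, a further 79 first at 7 DAG, and 38 in neither tissue on either day. Over all genes these shares were 13.3%, 5.54% and 81.1%. Calls in both tissues on both days were made for 22 members, beside 2.71% of all genes. In scion, 66 members were called higher on both days and 80 first at 7 DAG, where 5.85% and 4.90% of all genes were. In rootstock these numbers were 33 and 60, with shares of 4.19% and 3.36%. At 7 DAG, both tissues were called higher in 83 members, beside 5.34% of all genes, with 63 called in scion without a call in rootstock and 10 in rootstock without a call in scion. A call in one tissue and none in the other is not a test between them, and the direct comparison follows.

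Scion was directly compared with rootstock on the same days. At 3 DAG, 58 members were called higher in scion (29.0%) and 8 higher in rootstock (4.0%), where 7.13% and 4.48% of all genes were. At 7 DAG, 51 were called higher in scion (25.5%) and 11 higher in rootstock (5.5%), where the shares were 5.99% and 4.19%. Replicate numbers pair the libraries of this last comparison, and with the number as a block these counts were 54 and 17. For single genes, p-values of scion against rootstock at 7 DAG leave this pairing out unless a block is named. In 34 members scion was called above rootstock on both days, and in 6 rootstock was called above scion on both days, where 4.09% and 2.48% of all genes were. The median log2 difference was 0.70 at 3 DAG and 0.52 at 7 DAG, beside 0.00 and 0.02 over all genes.

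Levels were also compared without a fit, by counting members whose 3 libraries of one group all exceeded the 3 of the other. At 7 DAG, all 3 scion libraries exceeded all 3 intact libraries in 168 members and none lay wholly below, where 38.1% and 16.3% of all genes did so. In rootstock, 124 members lay wholly above and 2 wholly below, where the shares were 20.2% and 21.8%. At 3 DAG, 110 members in scion and 70 in rootstock lay wholly above intact, where 36.7% and 29.8% of all genes did, and 10 and 30 lay wholly below, where 18.2% and 23.9% did. The 70 are 35.0% of the members.

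**Figure D2:**
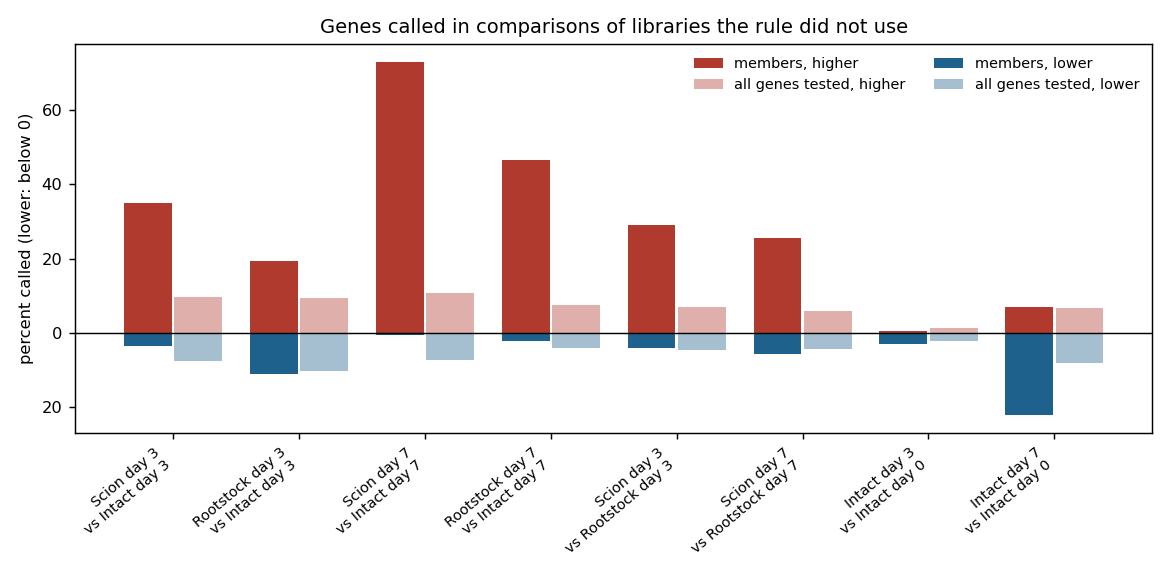
Share of the 200 members and of all 38436 genes tested that were called higher or lower in each of 8 comparisons, in percent, by the edgeR calls defined in the text. The members' share called higher is largest for scion against intact at 7 DAG (73.0%, beside 10.8% of all genes).

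Intact plants also changed with age. At 7 days, 44 members were called lower than at day 0 (22.0%) and 14 higher (7.0%), where 8.11% and 6.81% of all genes were. At 3 days the counts were 6 lower (3.0%) and 1 higher (0.5%), where the shares were 2.21% and 1.38%. Without day 0 replicate 2 the 6 falls became 2, and without day 0 replicate 3 they became 10. Of the 44 members that were lower at 7 days, 38 were called higher in scion than in intact plants of that day and 24 in rootstock. Both comparisons used the same intact libraries of day 7, so a low level there enters both. The share of all genes with both calls was not counted, so this overlap is a description of the members only. In 32 of the 44 the scion mean at 7 DAG was still above the intact mean of day 0, and in 12 it was below. In rootstock it was below in 27. Among all 200 members, the 7 DAG mean stood above the intact mean of day 0 in 182 in scion and 150 in rootstock.

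The first 3 members in rank carry no description, and in each the scion led the rootstock. In MA_10101473g0010, CPM at 3 DAG were 3.59, 5.04 and 4.41 in intact plants, 16.7, 23.9 and 17.6 in scion, and 8.16, 6.10 and 5.59 in rootstock. At 7 DAG they were 6.96, 2.24 and 3.68 in intact plants, 74.5, 74.3 and 76.6 in scion, and 24.9, 21.4 and 37.4 in rootstock. Scion libraries stood above rootstock and rootstock above intact on both days with no overlap. The fitted log2 fold change in scion was 2.02 ± 0.29 (SE, n = 3 a group, edgeR adjusted p = 6.1e-07) at 3 DAG and 3.98 ± 0.29 (adjusted p = 3.7e-13) at 7 DAG. In rootstock it was 0.58 ± 0.31 at 3 DAG, which was not called (adjusted p = 0.13), and 2.75 ± 0.29 (adjusted p = 4.4e-09) at 7 DAG. At 14 DAG the 3 libraries held 90.9, 92.0 and 101 CPM in scion and 80.7, 75.6 and 75.7 in rootstock, beside 10.7, 2.79 and 5.41 in intact plants. At 7 DAG the scion was thus nearer to its level of 14 DAG than the rootstock was. Scion exceeded rootstock by 1.44 ± 0.27 on the log2 scale at 3 DAG (adjusted p = 6.4e-05) and by 1.23 ± 0.23 at 7 DAG (adjusted p = 9.8e-05).

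MA_9917796g0010 and MA_7303603g0010, ranked next, were also called higher in scion on both days and in rootstock at 7 DAG. At 7 DAG, MA_9917796g0010 had 95.7, 108 and 107 CPM in scion, 28.8, 27.1 and 50.6 in rootstock, and 7.04, 2.24 and 3.76 in intact plants. MA_7303603g0010 had 26.3, 27.4 and 27.5 CPM in scion, 7.40, 6.28 and 12.9 in rootstock, and 2.40, 1.87 and 2.35 in intact plants. In both genes the 3 groups were apart. Scion exceeded rootstock by 1.35 ± 0.27 on the log2 scale in MA_9917796g0010 (edgeR adjusted p = 0.00018) and by 1.42 ± 0.25 in MA_7303603g0010 (adjusted p = 3.2e-05). With replicate number as a block the first of these differences was 1.38 with an adjusted p of 0.073, and the second was still called.

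MA_78155g0010, also without a description, was high early and was past its highest level by the late days that chose it. Intact plants gave 0 reads in all 3 libraries at 3 and at 7 DAG. Scion libraries held 9.13, 9.24 and 5.30 CPM at 3 DAG and 26.9, 23.0 and 31.8 at 7 DAG. Rootstock libraries held 16.9, 12.5 and 12.9 CPM at 3 DAG and 28.8, 23.9 and 39.3 at 7 DAG. All grafted libraries were far above intact ones, and scion and rootstock overlapped at 7 DAG. For a group without reads, a bound was set by allowing 3 counts over its 3 libraries. By that bound the level at 3 DAG was at least 125-fold higher in scion and at least 229-fold higher in rootstock, and at 7 DAG at least 351-fold and at least 396-fold higher. By 28 DAG the libraries held 1.96, 2.11 and 2.64 CPM in scion and 7.15, 6.07 and 3.80 in rootstock, below the levels of 7 DAG.

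Other high-ranking members without a description were first called higher in scion at 7 DAG. MA_42495g0010 was at first below the intact level: its CPM at 3 DAG were 5.11, 7.38 and 5.51 in intact plants, 3.79, 3.49 and 4.24 in scion, and 3.01, 2.14 and 2.23 in rootstock. At 7 DAG they were 5.84, 8.51 and 7.52 in intact plants, 26.7, 30.7 and 25.1 in scion, and 15.4, 10.8 and 10.3 in rootstock. The order of intact and grafted libraries was reversed between the days, without overlap on either. The rootstock was called lower at 3 DAG (log2 fold change -1.30 ± 0.24, edgeR adjusted p = 2.8e-05) and the scion was called higher at 7 DAG (1.75 ± 0.20, adjusted p = 2.8e-09). In MA_3550g0020 the scion was called higher at 7 DAG (1.54 ± 0.28, adjusted p = 2e-05), with 17.4, 19.8 and 9.94 CPM beside 5.76, 4.92 and 3.84 in intact plants. Its rootstock libraries, at 9.25, 9.86 and 6.95 CPM, were also wholly above intact ones, with a log2 fold change of 0.87 ± 0.28 that stayed under the threshold of 1.

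Other members were called in neither tissue on day 3 or 7, among them MA_8967171g0010, sixth in rank. Its CPM at 7 DAG were 0.320, 0.671 and 0.0784 in intact plants, 0.983, 0.731 and 0.582 in scion, and 0.578, 0.830 and 0.782 in rootstock, and grafted and intact libraries overlapped. At 14 DAG intact plants gave 0 reads, while scion held 2.31, 2.25 and 2.80 CPM and rootstock 3.75, 3.66 and 2.46. MA_585362g0010 likewise passed the fold threshold on neither day. Its scion log2 fold change was 0.84 ± 0.26 at 3 DAG (edgeR adjusted p = 0.0063) and 0.80 ± 0.24 at 7 DAG (adjusted p = 0.005). At 28 DAG its scion libraries held 10.4, 8.64 and 13.7 CPM and its rootstock libraries 8.67, 6.74 and 7.49, beside 0.592, 1.38 and 1.18 in intact plants.

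**Figure D3:**
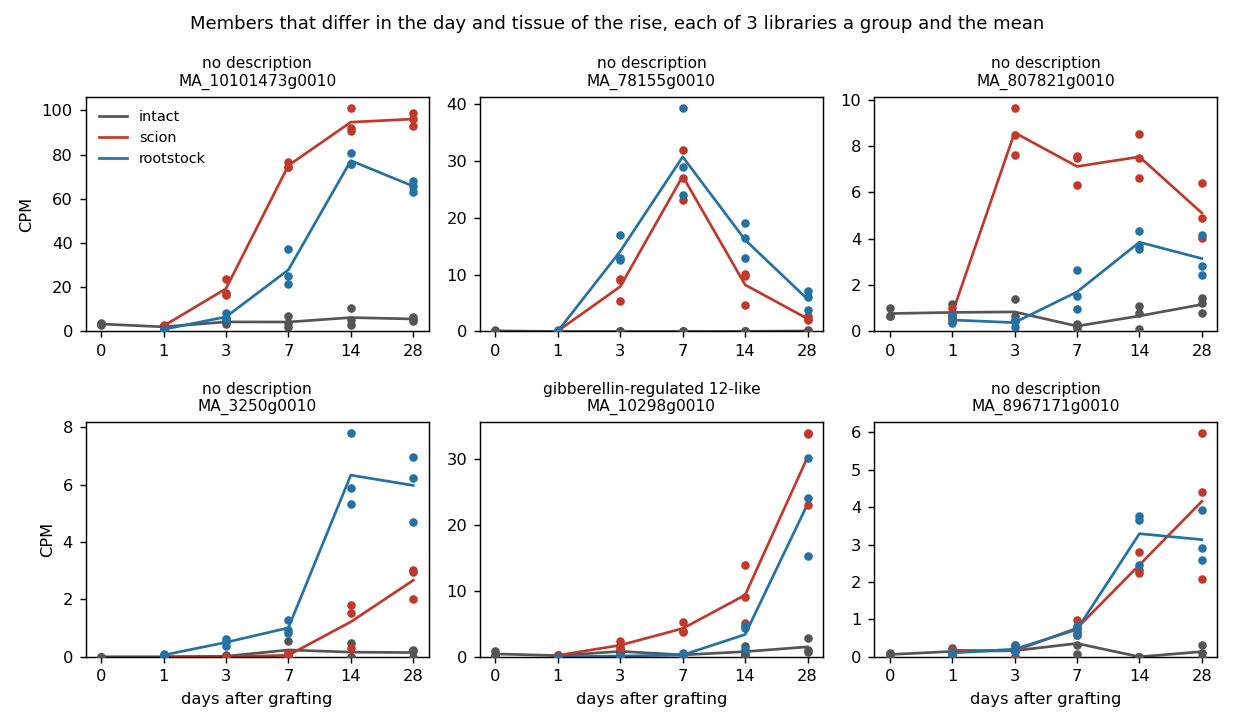
CPM of 6 members by day in intact plants, scion and rootstock; points are the 3 libraries of a group and lines join the means. MA_10101473g0010 and MA_807821g0010 were first higher in scion, MA_3250g0010 in rootstock, MA_78155g0010 peaked at 7 DAG in both tissues, MA_10298g0010 stayed low in rootstock at 7 DAG, and MA_8967171g0010 stood apart from intact plants at 14 DAG.

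Of the members that act on cell walls, 3 were beta-1,4-glucanases, enzymes of the endoglucanase family that cut beta-1,4-linked glucans. MA_827790g0010 (endoglucanase 17) gave 0 reads in intact plants at 3 DAG, where scion held 0.415, 0.948 and 0.252 CPM and rootstock 0.592, 0.314 and 0.378. It was at least 8.43-fold higher in scion and at least 7.06-fold higher in rootstock on that day. At 7 DAG scion held 3.12, 2.71 and 2.42 CPM and rootstock 3.76, 2.08 and 2.67, while a single read was counted over the 3 intact libraries. The ratio of the means was 105 in scion (95% counting interval 18.6 to 4177) and 114 in rootstock (20.2 to 4513), and all 4 comparisons were called. At 28 DAG the libraries held 8.28, 9.61 and 7.11 CPM in scion and 8.54, 13.7 and 10.9 in rootstock, and at most 0.118 in intact plants.

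MA_8409826g0010, also described as endoglucanase 17, was at 0 reads in every intact library up to 14 DAG. At 7 DAG scion held 1.39, 1.03 and 0.627 CPM and rootstock 0.397, 0.467 and 0.921. It was at least 12.7-fold higher in scion and at least 7.51-fold higher in rootstock at 7 DAG, and at least 3.01-fold and at least 2.62-fold higher at 3 DAG, and all 4 comparisons were called. MA_8394675g0010 (endoglucanase 3) had 1 read over the intact libraries at 7 DAG. Its scion libraries held 1.91, 0.989 and 1.84 CPM and its rootstock libraries 1.88, 1.14 and 1.89 on that day. The ratios were 59.6 (10.5 to 2380) and 64.7 (11.4 to 2579), and both were called. At 3 DAG it was at least 5.42-fold higher in scion and at least 7.32-fold higher in rootstock. The scion call at 3 DAG was lost without scion replicate 2 (edgeR adjusted p = 0.055), the library that held 0.711 of the 0, 0.711 and 0.303 CPM.

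Pectate lyases, which cleave the demethylated pectin that glues neighbouring cells, gave 5 members, and they did not move alike. MA_394910g0010 was at 0 reads in all intact libraries of 3 and 7 DAG. At 7 DAG scion held 0.636, 1.50 and 0.448 CPM and rootstock 0.433, 0.623 and 1.15, so it was at least 11.5-fold and at least 9.19-fold higher, and both were called. The calls at 3 DAG rested on 10 and 8 reads and were lost when single libraries were left out, in scion without intact replicate 1, intact replicate 3 or scion replicate 3 (edgeR adjusted p = 0.056, 0.06 and 0.19) and in rootstock without any intact replicate or rootstock replicate 1 or 2 (adjusted p from 0.05 to 0.097). MA_814644g0010 was at 0 reads in every intact library of the series. At 7 DAG scion held 0.116, 0.215 and 0.403 CPM and rootstock 0.722, 0.467 and 0.598, so it was at least 3.28-fold and at least 7.88-fold higher, and both were called.

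The other pectate lyases came later. MA_9478390g0010 (pectate lyase 8) gave 0 reads in every library of 3 DAG, and in rootstock and intact plants of 7 DAG. At 14 DAG scion held 1.21, 1.39 and 1.95 CPM and rootstock 0.625, 0.171 and 0.733, with intact plants still at 0. At 28 DAG scion held 5.40, 3.91 and 3.84 CPM and rootstock 5.56, 4.79 and 3.75, and intact plants had come up to 2.49, 0.0512 and 1.39. MA_2890821g0010, another gene described as pectate lyase 8, was called in neither tissue at 3 or 7 DAG. Its levels at 28 DAG were 9.45, 9.24 and 9.94 CPM in scion, 8.40, 7.97 and 11.7 in rootstock and 3.67, 0.767 and 1.75 in intact plants, and the groups of grafted and intact libraries did not overlap. That day chose the members, and 195 of the 200 in scion and 196 in rootstock lay wholly above intact plants then, beside 27.7% and 21.2% of all genes.

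MA_10431323g0020 (pectate lyase 18) differed between the grafted tissues. At 7 DAG its CPM were 1.92, 0.448 and 0.157 in intact plants, 1.73, 1.93 and 1.25 in scion, and 0.181, 0.0519 and 0.138 in rootstock. Rootstock libraries were low but overlapped intact ones, since the intact library at 0.157 CPM lay below the rootstock library at 0.181. The scion libraries fell within the intact range or just above it. The scion was above the rootstock by 3.40 ± 0.72 on the log2 scale (edgeR adjusted p = 0.00038). The rootstock was called below intact plants at 7 DAG (-2.58 ± 0.88, adjusted p = 0.021), and this call was lost without intact replicate 1 (-1.17, adjusted p = 0.47) or rootstock replicate 2 (adjusted p = 0.066). By 28 DAG the libraries held 16.6, 18.5 and 19.4 CPM in scion, 16.1, 17.1 and 21.0 in rootstock and 8.00, 1.79 and 5.91 in intact plants.

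MA_10431597g0010 is described as a polygalacturonase, an enzyme that hydrolyses the pectin backbone. Its CPM in intact plants stayed between 8.92 and 15.4 on all 6 days. Scion libraries held 35.0, 33.4 and 35.3 CPM at 3 DAG and 43.0, 38.8 and 43.7 at 7 DAG, and rootstock libraries 18.9, 18.5 and 17.5 and then 23.1, 22.5 and 24.6. On both days scion was highest, rootstock lay between and intact plants were lowest, with no overlap. The scion rose by 1.49 ± 0.12 on the log2 scale at 3 DAG (edgeR adjusted p = 3.1e-13) and by 1.59 ± 0.12 at 7 DAG (adjusted p = 7.9e-14). In rootstock the log2 fold changes of 0.68 ± 0.12 (adjusted p = 1.5e-05) and 0.94 ± 0.12 (adjusted p = 8.4e-08) stayed under the threshold of 1. By 28 DAG the rootstock, at 32.0, 32.5 and 34.9 CPM, had come close to the scion at 36.1, 38.9 and 36.2.

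Laccases, copper oxidases that couple lignin precursors, gave 2 members. MA_10428927g0020 was at 0 reads in intact plants at 7 DAG, where scion held 4.74, 2.54 and 7.75 CPM and rootstock 1.77, 0.519 and 2.16. It was at least 64.4-fold higher in scion and at least 19.9-fold higher in rootstock, and both were called. Scion libraries were wholly above rootstock ones, by 1.53 ± 0.43 on the log2 scale (edgeR adjusted p = 0.0056), a call that was lost without rootstock replicate 2 (adjusted p = 0.051) or scion replicate 3 (adjusted p = 0.097) and in a fit of these groups alone (adjusted p = 0.15). MA_57140g0010 split between the tissues at 7 DAG, with 2.72, 1.89 and 0.985 CPM in scion, 0.217, 0 and 0.0460 in rootstock and 1.44, 0.149 and 0.313 in intact plants. The scion was above the rootstock by 3.93 ± 0.66 on the log2 scale (adjusted p = 1e-05). Against intact plants, neither its scion rise (1.39 ± 0.55, adjusted p = 0.035) nor its rootstock fall (-2.54 ± 0.80, adjusted p = 0.012) was kept when single libraries were left out. The first was lost without intact replicate 2 or 3 or scion replicate 1 or 2 (adjusted p from 0.069 to 0.24), and the second without intact replicate 1 (0.43) or rootstock replicate 2 (0.053).

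**Figure D4:**
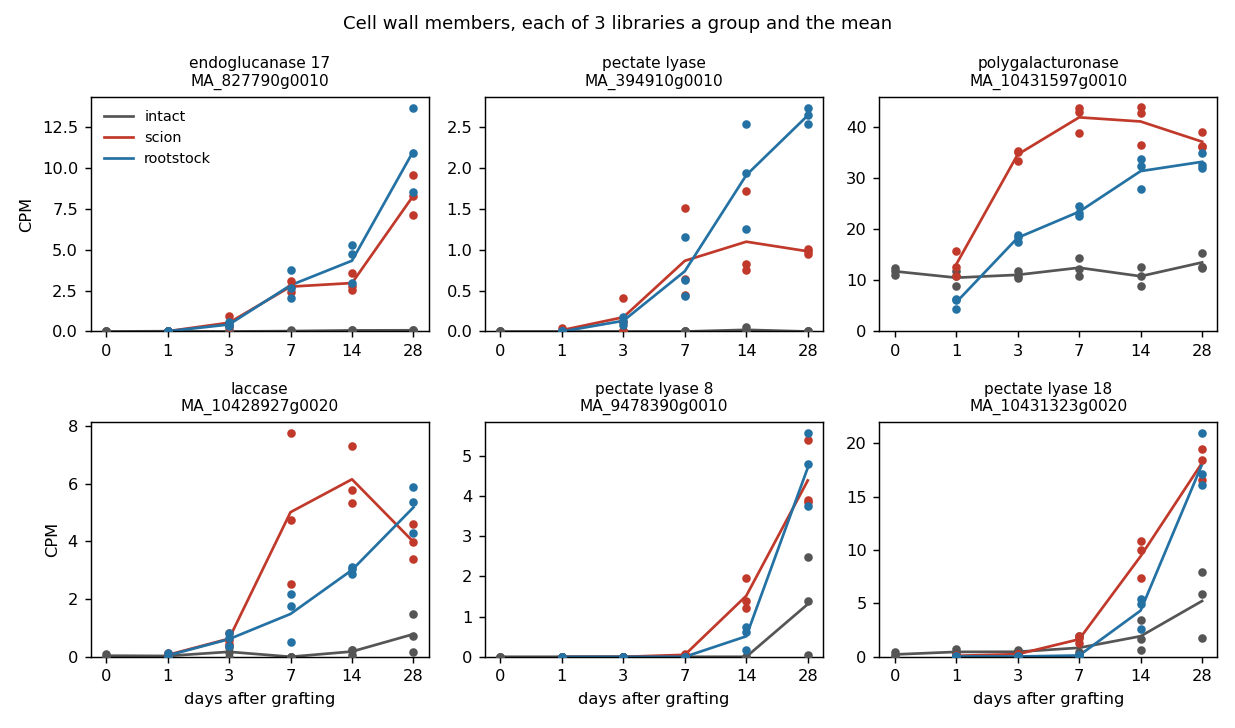
CPM of 6 cell wall members by day in intact plants, scion and rootstock; points are the 3 libraries of a group and lines join the means. The endoglucanase, the first pectate lyase and the laccase were low in intact plants up to 7 DAG, the polygalacturonase had 8.92 to 15.4 CPM there, and the means of pectate lyase 8 and 18 were above intact plants in both tissues at 14 and 28 DAG.

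The wall genes listed in the supplementary tables give the setting of these members. The lists are partial and may have been chosen on these libraries, so their directions are not independent evidence. At 7 DAG, 16 of the 22 beta-1,4-glucanases tested were called higher in scion and 12 in rootstock, with 0 and 1 called lower (median log2 fold change 1.74 and 1.65). Of 37 pectate and pectin lyases, 19 were called higher in scion and 20 in rootstock, with 2 and 1 lower (median 1.67 and 1.76). The median over all genes was 0.07 and 0.00. Without the members, 20 of the other 32 lyases were called higher in each tissue at 14 DAG, and 20 in scion and 21 in rootstock at 28 DAG, with none lower. Of the other 19 glucanases, 12 in each tissue were called higher at 14 DAG, and 10 in scion and 9 in rootstock at 28 DAG. Over all genes, 11.0% and 9.31% were called higher in scion and rootstock at 14 DAG and 7.86% and 7.27% at 28 DAG, with 7.47% and 4.77% called lower at 14 DAG.

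Laccases were called in both directions. Of 61 tested, 19 were called higher and 10 lower in scion at 7 DAG (median log2 fold change 0.10), and 12 higher and 24 lower in rootstock (median -0.93). Of the 59 that are not members, 15 were called higher and 7 lower in scion and 11 and 3 in rootstock at 14 DAG, and 12 and 10 in scion and 11 and 11 in rootstock at 28 DAG. Over the 61 tested, the median at 14 DAG was 0.085 in scion and -0.601 in rootstock, beside 0.074 and 0.031 over all genes. In rootstock the middle of the list thus lay below intact plants at 14 DAG, although more laccases were called higher than lower. Pectin methyl esterases, which prepare pectin for the lyases, held no member. Of 54 tested, 21 were called higher and 6 lower in scion at 7 DAG, and 16 higher and 7 lower in rootstock (median 0.76 and 0.69). A co-expression module of the study named yellow held 3 members among 60 genes tested. The study built it from transcription factors differentially expressed during grafting, and singled it out for positive regulation in grafted and not in intact plants. In that module 45 genes were called higher in scion and 32 in rootstock at 7 DAG, with none lower (median 1.55 and 1.19). The direction of the module is not independent evidence, since it was chosen on these libraries. One of its members, MA_15044g0020, was at 0 reads in intact plants at 7 DAG and was at least 4.92-fold higher in scion and at least 4.13-fold higher in rootstock, with 24 and 22 reads.

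Xyloglucan endotransglucosylases cut xyloglucan chains and rejoin them, and both described members were higher in rootstock than in scion while the intact level went down. In MA_10028g0010 (xyloglucan endotransglucosylase 2), intact plants held 2.53, 4.43 and 3.13 CPM at day 0, 0.800, 0.970 and 0.940 at day 7 and 0.238, 0.182 and 0.195 at day 14. At day 7 scion held 1.97, 2.84 and 2.60 CPM and rootstock 4.80, 9.23 and 7.13. The 3 groups of that day did not overlap. The log2 fold change was 1.29 ± 0.35 in scion (edgeR adjusted p = 0.0021) and 2.98 ± 0.32 in rootstock (adjusted p = 9.6e-10). Intact plants fell by 2.00 ± 0.34 on the log2 scale from day 0 to day 7 (adjusted p = 6.5e-06). Rootstock exceeded scion on both days, with scion against rootstock at -1.72 ± 0.33 at 3 DAG (adjusted p = 7e-05) and -1.68 ± 0.26 at 7 DAG (adjusted p = 2.7e-06).

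In MA_11177g0010 (xyloglucan endotransglucosylase 26), CPM at 7 DAG were 0.480, 0.671 and 0.235 in intact plants, 1.45, 1.63 and 1.30 in scion, and 5.56, 6.17 and 4.56 in rootstock, again without overlap. The rootstock rose by 3.55 ± 0.44 on the log2 scale (edgeR adjusted p = 2.3e-08). The scion rise of 1.48 ± 0.49 (adjusted p = 0.012) was lost without intact replicate 3 (adjusted p = 0.08). Scion against rootstock was -2.04 ± 0.45 at 3 DAG (adjusted p = 0.00043) and -2.07 ± 0.35 at 7 DAG (adjusted p = 1e-05). Its intact level, a few reads a library, was 0.0792, 0 and 0.0651 CPM at 14 DAG.

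MA_11043g0030 is described as a linoleate 9S-lipoxygenase, which adds oxygen to linoleic acid in the first step of oxylipin synthesis. Intact plants held 14.0, 16.5 and 14.1 CPM at day 0, 8.76, 6.25 and 7.51 at day 3, and 4.88, 4.03 and 4.07 at day 7. Scion held 22.2, 23.8 and 21.1 CPM at 3 DAG and 29.1, 33.8 and 29.2 at 7 DAG, while rootstock held 4.97, 5.78 and 7.31 and then 21.7, 10.2 and 7.69. The scion was above its other groups on both days, and the rootstock overlapped intact plants at 3 DAG and lay above them at 7 DAG. The log2 fold change was 1.40 ± 0.21 in scion at 3 DAG (edgeR adjusted p = 8.8e-07), 2.67 ± 0.23 in scion at 7 DAG (adjusted p = 4.7e-12) and 1.65 ± 0.23 in rootstock at 7 DAG (adjusted p = 6.6e-07). From day 0 to day 7 intact plants fell by 1.88 ± 0.24 (adjusted p = 3.7e-08). Scion exceeded rootstock by 1.77 ± 0.21 at 3 DAG (adjusted p = 1.9e-08). At 7 DAG that difference was 1.02 ± 0.19 (adjusted p = 7.6e-05), and with replicate number as a block it was 1.08 with an adjusted p of 0.25. It went under the threshold of 1 without rootstock replicate 2 (0.86), rootstock replicate 3 (0.77) or scion replicate 2 (0.95).

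MA_109058g0010, among the first 10 in rank and without a description, had the largest fitted fall in intact plants among the members named here. Intact libraries held 69.7, 85.6 and 35.0 CPM at day 0, 79.8, 15.9 and 32.8 at day 3, 1.20, 1.34 and 0.313 at day 7, and 0.158, 0.121 and 0.0651 at day 14. Grafted tissue fell as well but less far: scion held 8.67, 9.37 and 10.2 CPM at 7 DAG and 3.08, 3.96 and 3.35 at 14 DAG. At 28 DAG scion stood at 28.3, 20.2 and 41.4 CPM and rootstock at 50.1, 43.3 and 84.6, while the intact libraries had 0, 0.205 and 0. The rootstock was thus within the range of intact plants at day 0, and the scion reached its lower end. The fall in intact plants from day 0 to day 7 was -6.14 ± 0.64 on the log2 scale (edgeR adjusted p = 1.5e-09), and the scion was above intact plants at 7 DAG by 3.14 ± 0.71 (adjusted p = 0.00048). At 3 DAG the rootstock, at 11.9866, 9.05 and 11.9 CPM, was called lower than intact plants (-2.02 ± 0.44, adjusted p = 0.00026), a call that was lost in a fit of these groups alone (adjusted p = 0.084).

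Other described members shared the fall in intact plants. MA_10433606g0010 encodes LEA3-1, a late embryogenesis abundant protein of the kind that accumulates under drying. Intact plants held 2.61, 2.97 and 1.14 CPM at day 0 and 0.240, 0.298 and 0.235 at day 7, a fall of 3.17 ± 0.52 on the log2 scale (edgeR adjusted p = 2.7e-06). Neither grafted tissue was called above intact plants at 7 DAG. At 28 DAG scion held 3.19, 2.44 and 4.15 CPM and rootstock 1.32, 1.62 and 3.00, beside 0.237, 0.409 and 0.462 in intact plants.

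MA_10427924g0010 and MA_10427924g0020, neighbours on the scaffold MA_10427924, are both described as ornithine decarboxylase-like, the enzyme that makes putrescine for polyamine synthesis. Reads of near-identical copies could be split between them. In MA_10427924g0010, intact plants held 0.843, 1.14 and 0.739 CPM at day 0 and 1 read over 3 libraries at day 7, so that day 0 was 35.4 times day 7 (6.04 to 1429, called). In MA_10427924g0020, day 0 was 13.0 times day 7 (3.32 to 112, called). In neither gene was scion or rootstock called against intact plants at 3 or 7 DAG. At 3 DAG, MA_10427924g0020 had 0.533, 0.355 and 0.454 CPM in scion and 0.0912, 0.0629 and 0 in rootstock, a ratio of 9.21 (2.80 to 47.8, adjusted p = 0.0053). At 28 DAG MA_10427924g0010 stood at 9.88, 17.4 and 24.7 CPM in scion and 11.7, 13.7 and 18.7 in rootstock, beside 3.02, 1.94 and 0.976 in intact plants, and MA_10427924g0020 at 4.29, 6.57 and 7.11 and at 4.90, 4.74 and 6.86, beside 1.01, 0.358 and 0.411. Both grafted tissues were above intact plants without overlap in both genes at that time. That day chose the members: 195 of the 200 in scion and 196 in rootstock lay wholly above intact plants then, beside 27.7% and 21.2% of all genes.

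**Figure D5:**
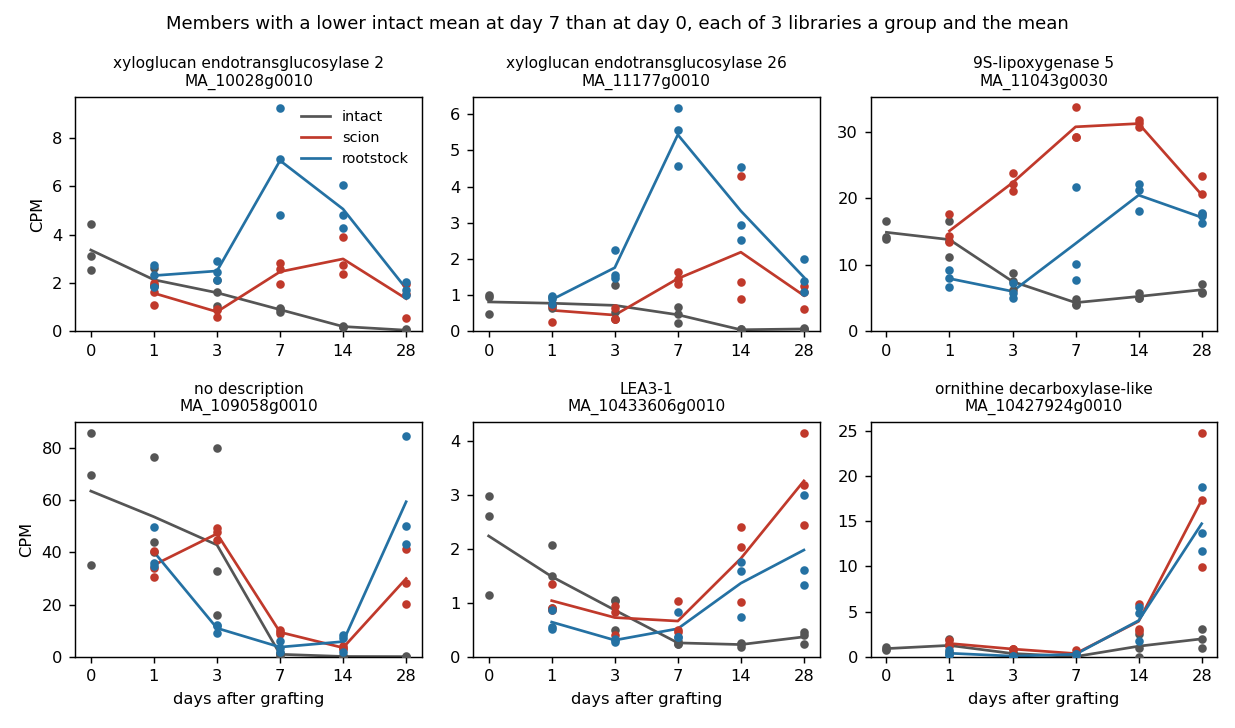
CPM of 6 members whose intact mean was lower at day 7 than at day 0, by day in intact plants, scion and rootstock; points are the 3 libraries of a group and lines join the means. The intact fall from day 0 to day 7 was called in 5 of them and not in MA_11177g0010 (log2 fold change -0.88 ± 0.54, edgeR adjusted p = 0.2).

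Enzymes of the vitamin C pathways gave 2 members. MA_199856g0010 is described as L-gulonolactone oxidase 3, of the family that oxidises L-gulonolactone to ascorbate. At 3 DAG its CPM were 0.561, 0.521 and 0.735 in intact plants, 2.25, 1.78 and 1.77 in scion, and 2.46, 2.58 and 2.44 in rootstock. At 7 DAG they were 0.800, 0.522 and 0.392, then 5.55, 5.80 and 4.25, then 5.74, 6.33 and 6.17 in the same order. Grafted libraries were above intact ones without overlap on both days. The log2 fold changes were 1.47 ± 0.39 and 3.02 ± 0.38 in scion and 1.95 ± 0.38 and 3.43 ± 0.37 in rootstock at 3 and 7 DAG, with edgeR adjusted p of 0.002, 1.2e-08, 3.8e-05 and 1.1e-09. Scion and rootstock were not called apart on either day. MA_10426186g0010, GDP-mannose 3,5-epimerase 2, makes a sugar nucleotide used for ascorbate and for wall polysaccharides. Its scion libraries held 25.4, 31.4 and 28.9 CPM at 7 DAG beside 16.6, 12.1 and 13.0 in intact plants, a log2 fold change of 0.89 ± 0.16 (adjusted p = 1.2e-05) that stayed under the threshold of 1.

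The described members hold 2 transcription factors among those named. MA_290245g0010 is a LOB domain protein, of a plant family that acts at organ boundaries and in new lateral organs. Intact plants gave 0 reads at 7 DAG, where scion held 2.37, 2.58 and 2.10 CPM and rootstock 2.60, 2.85 and 2.81, at least 30.3-fold and at least 35.3-fold higher. It was called on both days in both tissues. At 14 DAG it stood at 2.04, 2.20 and 2.41 CPM in scion and 3.94, 3.31 and 4.46 in rootstock. MA_89624g0010, described as MYB44, a factor known in Arabidopsis for stress responses, was at 0 reads in intact plants at 7 DAG. It was at least 3.89-fold higher in scion (19 reads) and at least 5.07-fold higher in rootstock (27 reads), and both were called, the second with an adjusted p of 0.057 in a fit of these groups alone.

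MA_10298g0010 is described as gibberellin-regulated 12-like, from the family of small cysteine-rich peptides that respond to gibberellin. At 7 DAG scion held 3.70, 3.91 and 5.28 CPM, while rootstock held 0.108, 0.208 and 0.506 and intact plants 0.480, 0.224 and 0.157. Scion stood alone, and rootstock and intact plants overlapped. The scion was above intact plants by 3.74 ± 0.70 on the log2 scale (edgeR adjusted p = 4.6e-05), and the rootstock difference was -0.08 ± 1.10 (adjusted p = 0.97). Scion exceeded rootstock by 3.59 ± 0.83 at 3 DAG (adjusted p = 0.001) and by 3.81 ± 0.62 at 7 DAG (adjusted p = 1.1e-05). By 28 DAG both tissues were high, at 23.1, 34.0 and 33.9 CPM in scion and 15.3, 24.1 and 30.1 in rootstock, beside 2.78, 0.665 and 1.08 in intact plants.

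A scion lead was also large in MA_807821g0010, which has no description. At 3 DAG scion held 9.66, 8.47 and 7.62 CPM, rootstock 0.501, 0.189 and 0.462, and intact plants 0.674, 1.39 and 0.473. Scion was far above the others and rootstock was at or below intact plants. The scion rose by 3.28 ± 0.34 on the log2 scale (edgeR adjusted p = 1.5e-10) and the rootstock difference of -0.999 ± 0.483 was not called (adjusted p = 0.087). At 7 DAG both tissues were called higher, the scion by 4.74 ± 0.44 (adjusted p = 1e-11) and the rootstock by 2.84 ± 0.51 (adjusted p = 2.4e-05), and scion exceeded rootstock by 4.28 ± 0.36 at 3 DAG (adjusted p = 1.6e-12) and 1.89 ± 0.29 at 7 DAG (adjusted p = 2.1e-06). MA_81834g0010 was at 0 reads in intact plants at 3 DAG, with 1.42, 1.54 and 1.51 CPM in scion and 0.365, 0.126 and 0.168 in rootstock, at least 24.1-fold and at least 3.66-fold higher. The scion led by 2.58 ± 0.42 (adjusted p = 1.1e-05).

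The opposite order was seen in MA_3250g0010, also without a description. At 3 DAG scion gave 0 reads in all 3 libraries, rootstock held 0.501, 0.629 and 0.378 CPM, and intact plants 0.0561, 0 and 0. The scion was at least 8.69-fold lower than the rootstock (edgeR adjusted p = 0.00092). At 7 DAG rootstock held 1.26, 0.934 and 0.829 CPM and scion 0.116, 0.0430 and 0, a ratio of 21.7 (7.12 to 108, adjusted p = 7e-05). By 14 DAG the scion had come up to 1.54, 0.321 and 1.79 CPM and the rootstock to 5.88, 5.31 and 7.79, still without overlap between them. MA_86060g0010 was at 0 reads in intact plants up to 14 DAG, and at 7 DAG it was at least 4.10-fold higher in scion and at least 12.2-fold higher in rootstock.

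Some described members are tied to defence and to metabolites, and how many of the 149 without a description are cannot be told. MA_170055g0010 is described as salicylate carboxymethyltransferase, which makes the volatile methyl salicylate. At 3 DAG intact plants gave 0 reads, scion held 0.889, 1.13 and 0.959 CPM and rootstock 1.23, 2.20 and 1.09, at least 15.96-fold and at least 23.0-fold higher, and both were called. MA_10137700g0010 is described by the structure of a sesquiterpene synthase, an enzyme of terpene resin components. Its rootstock libraries held 2.42, 2.14 and 1.30 CPM at 3 DAG and intact ones 0.112, 0 and 0, a ratio of 46.3 (12.5 to 387, called). In scion the ratio at 3 DAG was 23.0 (6.06 to 195) and was not called (edgeR adjusted p = 0.065). In intact plants, day 7 was 45.8 times day 0 (7.71 to 1857), also without a call (adjusted p = 0.061), and neither grafted tissue was called against intact plants at 7 DAG.

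Of 2 chitinases, which break the chitin of fungal walls, MA_10099693g0010 (class VII) rose in rootstock at 7 DAG by 3.52 ± 0.75 on the log2 scale (edgeR adjusted p = 0.00027), with 1.88, 1.66 and 2.76 CPM beside 0.240, 0.0746 and 0.235 in intact plants. The scion held 0.752, 0.516 and 0.537 CPM and was below the rootstock by -2.00 ± 0.55 (adjusted p = 0.0048). MA_10313114g0010 (basic endochitinase) varied widely among intact replicates, with 6.56, 31.7 and 37.1 CPM at day 7, and neither tissue was called there. Its levels at 28 DAG were 76.1, 31.4 and 66.0 CPM in scion, 41.6, 23.8 and 30.1 in rootstock and 0.592, 3.22 and 3.55 in intact plants. Over the 79 genes with defence words in their description that were tested, 23 were called higher in scion and 24 in rootstock at 7 DAG, with 6 and 0 lower (median log2 fold change 0.80 and 0.81), and of the 77 that are not members, 35 and 38 were called higher at 28 DAG, with none lower. That list was drawn from descriptions of genes the study had called, so its directions are not independent evidence. The summed level of the 89 listed genes spread from 797 to 8191 CPM over the 3 rootstock libraries of 28 DAG, beside 323 to 535 in intact plants.

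Transport genes among the members included an aquaporin, a metal carrier and a metabolite exporter. MA_10426909g0020 is described as PIP2-8, a water channel of the plasma membrane. Its CPM at 7 DAG were 1.12, 0.298 and 0.705 in intact plants, 0.694, 1.33 and 0.672 in scion, and 2.24, 1.66 and 1.52 in rootstock. Rootstock libraries lay above the others, and scion and intact plants overlapped. The rootstock rise of 1.40 ± 0.51 on the log2 scale (edgeR adjusted p = 0.03) was lost without intact replicate 2 (adjusted p = 0.17), intact replicate 3 (0.074) or rootstock replicate 1 (0.11). At 28 DAG it stood at 13.0, 23.2 and 20.3 CPM in scion and 10.9, 22.9 and 19.8 in rootstock, beside 2.43, 1.59 and 0.719 in intact plants.

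MA_10432744g0010 is described as DETOXIFICATION 29-like, of the family of exporters for secondary metabolites and toxins. It was called higher in scion on both days (1.83 ± 0.46 at 3 DAG, edgeR adjusted p = 0.001, and 2.00 ± 0.42 at 7 DAG, adjusted p = 0.00015), with 1.04, 1.59 and 1.52 CPM in scion and 0.0800, 0.597 and 0.235 in intact plants at 7 DAG. MA_10432971g0020 is described as YSL3-like, a carrier of metals bound to nicotianamine. Scion at 7 DAG held 11.7, 9.03 and 8.37 CPM and intact plants 4.64, 3.28 and 4.31, without overlap. The log2 fold change of 1.09 ± 0.21 (adjusted p = 5.2e-05) went under the threshold of 1 without intact replicate 2 (0.90) or scion replicate 1 (0.95).

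Peptidases were also among the described members. MA_10430728g0020, lysosomal Pro-X carboxypeptidase-like, was called higher in rootstock at 3 DAG with 22 reads against 1 in intact plants (ratio 17.3, 2.79 to 713). MA_10434540g0020, glutamate carboxypeptidase 2, held 6.002, 4.45 and 7.16 CPM in scion and 3.94, 2.40 and 3.60 in rootstock at 14 DAG, beside 0.396, 0.485 and 0.260 in intact plants. At 7 DAG its scion rise of 1.53 ± 0.50 on the log2 scale (edgeR adjusted p = 0.012) was lost without intact replicate 3 (adjusted p = 0.091).

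Some members were called below the intact level at 3 DAG. On that day, 27 members were called lower in at least 1 tissue and 2 in both, where 13.5% and 4.16% of all genes were. The members' share in at least 1 tissue thus equalled that of all genes, and their share in both tissues was below it. In MA_82166g0010, which has no description, CPM at 3 DAG were 2.19, 1.82 and 1.47 in intact plants, 0.593, 0.296 and 0.202 in scion, and 0.0912, 0.189 and 0.0841 in rootstock, without overlap. The log2 fold change was -2.49 ± 0.47 in scion (edgeR adjusted p = 3e-05) and -3.97 ± 0.57 in rootstock (adjusted p = 1.7e-07). At 28 DAG scion held 15.1, 11.8 and 13.3 CPM and rootstock 7.41, 6.35 and 8.18, beside 0.592, 0.307 and 0.0514 in intact plants. Its largest separation thus came on the last day.

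MA_9455524g0010 was the single member called lower in scion at 7 DAG (-1.55 ± 0.46, edgeR adjusted p = 0.0051), with 0.231, 0.516 and 0.224 CPM beside 1.60, 0.597 and 0.470 in intact plants. That call was lost without intact replicate 1 (-0.89, adjusted p = 0.17). At 3 DAG the scion held 0, 0.118 and 0.101 CPM beside 0.674, 0.608 and 0.683, a fall of 3.18 ± 0.63 (adjusted p = 5.1e-05). By 14 DAG the scion stood at 2.92, 1.98 and 3.03 CPM and intact plants at 0.792, 0.607 and 0.977, so that the order of the groups was reversed. The fall of MA_7253086g0010 in scion at 3 DAG, with a fitted log2 fold change of -3.30, was lost without intact replicate 1 (-1.11, edgeR adjusted p = 0.59).

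Described members were counted apart from the others. Of the 51 with a description, 34 were called higher in scion and 27 in rootstock at 7 DAG, and of the 149 without, 112 and 66. Over all genes tested, 10.8% were called higher in scion and 7.55% in rootstock on that day. The described and undescribed members were not tested against each other. Of the 14 members called higher in intact plants at day 7 than at day 0, all 14 lacked a description, as most members do. The 14 are 7.0% of the members, close to the 6.81% of all genes called higher there. These descriptions come from tables of genes the study had called, so they cover a chosen set.

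Markers of cell types were set beside these results. They were found mainly by words in descriptions of genes the study had called, so their directions are not independent evidence. The summed level of 44 cell division genes in the 3 libraries of a group was 274 to 329 CPM in intact plants, 731 to 774 in scion and 574 to 707 in rootstock at 14 DAG, and 316 to 396, 513 to 548 and 422 to 516 at 28 DAG. Of the 39 tested that are not members, 27 were called higher in scion and 21 in rootstock at 14 DAG and at most 1 in either tissue at 28 DAG, with 3 and 1 lower on each of these days. Among all genes tested, the shares called higher in scion and rootstock were 11.0% and 9.31% at 14 DAG and 7.86% and 7.27% at 28 DAG. The shares called lower were 7.47% and 4.77%, and then 2.95% and 1.96%. The sum over 5 xylem genes at 14 DAG was 26.5 to 32.5 CPM in intact plants, 65.8 to 83.4 in scion and 42.6 to 49.9 in rootstock, with 1 gene called higher in each tissue (median 0.60 and 0.39). The sum over 8 phloem genes was 24.5 to 29.4, 44.5 to 48.9 and 47.3 to 48.4 CPM, with 1 of 7 tested called higher in each tissue (median 0.54 and 0.61). In intact plants, 1 of the 8 phloem genes gave no read at 14 DAG, and 2 of the 44 cell division genes. The 1 gene with photosynthesis words in its description was called higher in both tissues at 3 DAG (log2 fold change 1.08 in scion and 1.35 in rootstock). It was called in neither tissue at 7, 14 or 28 DAG. The part of these cell types in the members' levels was not tested.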

How the data were processed

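RNA-seq libraries of 48 samples were used, 3 pools of 5 plants in each of 16 groups. The authors deposited 1 table of raw counts per gene model, made, per the study's methods and processing notes, by removing ribosomal reads with SortMeRNA, trimming with fastp, aligning to the P. abies genome with STAR and strand-specific counting with HTSeq. No deposited column was left unused. Nothing says that the pools came from separate sowings, so p-values measure the spread between pools.

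Members and gene lists were chosen with earlier results of these data known. CPM used the column sums. In edgeR 4.0.16 (R 4.3.3), genes passing filterByExpr (minimum count 10, 38436 genes) were scaled by the trimmed mean of M values and fitted over all 16 groups with the quasi-likelihood test. P-values were adjusted over all genes by Benjamini-Hochberg, calls needed an adjusted p below 0.05 with a log2 fold change past 1, and SE is the log2 fold change divided by the square root of F. The fit was tested on simulated data. Bounds allow 3 counts for the group without reads and take the count of the other group as exact, so its counting error is left out. Counting intervals cover counting error only. Neither covers the spread between pools.

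The members named in the text were the first 10 in rank; the first 25 with a description; those in the supplementary lists of laccases, pectin methyl esterases, glucanases, pectate and pectin lyases and the yellow module; for each tissue at 3 and 7 DAG the 2 largest called rises and 2 largest called falls; the 2 largest called differences in each direction between scion and rootstock on each day; those at the limit of the choice; and the first 2 in rank called higher on neither day. Gene descriptions came from the study's supplementary tables, which are partial. Same-numbered libraries deviated together only for scion against rootstock at 7 DAG (r = 0.21, 0.16 and 0.21). Blocked results of that comparison are given for the counts of members and for MA_9917796g0010, MA_7303603g0010 and MA_11043g0030. The other p-values of that comparison leave the pairing out. Alternatives were DESeq2 1.42.0, scaling by library size, no filter, a fit of the compared groups alone, the replicate number as a block, each library left out, and other pseudocounts, averages and scalings in the rule. A block within the compared groups was added after seeing the data.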

Additional observations from a re-analysis of the deposited data

Results flagged for a closer look

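The members named in the report were looked through for differences between scion and rootstock on the same day, tested directly in the fit. Of 41 such differences that were called, 25 were kept without each library in turn.

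At 3 DAG the scion was above the rootstock on the log2 scale by 1.44 in MA_10101473g0010, 1.30 in MA_9917796g0010, 1.98 in MA_109058g0010, 1.77 in MA_11043g0030, 3.59 in MA_10298g0010, 2.58 in MA_81834g0010 and 4.28 in MA_807821g0010. The difference had the opposite sign in both xyloglucan endotransglucosylases, at -1.72 in MA_10028g0010 and -2.04 in MA_11177g0010. Members with few reads gave folds instead. MA_10427924g0020 was 9.21-fold higher in scion, MA_10431404g0010 at least 3.45-fold higher in scion, MA_3250g0010 at least 8.69-fold lower in scion, and MA_86060g0010 9.56-fold higher in rootstock (95% counting interval 1.39 to 411). The call of MA_10431404g0010 was lost without any rootstock replicate or scion replicate 1 or 3 (edgeR adjusted p from 0.06 to 0.078), and that of MA_86060g0010 without rootstock replicate 1 or 3 or scion replicate 2 or 3 (0.065 to 0.13).

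At 7 DAG the scion was above the rootstock by 1.23 in MA_10101473g0010, 1.35 in MA_9917796g0010, 1.42 in MA_7303603g0010, 3.81 in MA_10298g0010, 3.40 in MA_10431323g0020, 3.93 in MA_57140g0010, 1.79 in MA_81834g0010, 1.89 in MA_807821g0010 and 2.31 in MA_116931g0010. The difference was -1.68 in MA_10028g0010, -2.07 in MA_11177g0010, -2.00 in MA_10099693g0010, -1.87 in MA_9455524g0010 and -2.55 in MA_10137700g0010, and MA_3250g0010 was 21.7-fold higher in rootstock. The call of MA_10137700g0010 was lost without rootstock replicate 3 or any scion replicate (edgeR adjusted p from 0.053 to 0.11), and that of MA_9917796g0010 with the replicate number as a block (adjusted p = 0.073).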

How the results depend on the processing

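Of the 164 calls of named members, 102 were kept under every alternative, 62 were lost under at least 1, 52 of them when single libraries were left out, and none changed direction. Counts of members called higher in scion and rootstock at 3 and 7 DAG stayed within 1.5 times throughout. Of the 112 counts of calls in the gene lists, 81 stayed within 1.5 times under every alternative and the others did not. Other counts of members moved as follows. The members called lower in scion at 7 DAG went from 1 to 2 with DESeq2. In rootstock at 7 DAG they went from 4 to 2 in a fit of the compared groups alone. The 1 member called higher in intact plants at 3 days became 0 with DESeq2 and without the filter. With the replicate number as a block within the compared groups, the counts were 0 lower in scion and 2 lower in rootstock at 7 DAG, 17 lower for scion against rootstock at 7 DAG, 0 higher and 3 lower in intact plants at 3 days and 6 higher at 7 days. As a block in the fit of all groups it gave 145 and 94 members higher in scion and rootstock at 7 DAG. The causes were not tested. Without 1 library, members called lower numbered 4 to 7 in scion and 17 to 21 in rootstock at 3 DAG, 1 to 2 and 1 to 4 at 7 DAG, and 2 to 10 in intact plants at 3 days, where 0 to 1 were called higher. Those called higher at 7 DAG numbered 125 to 142 in scion and 83 to 98 in rootstock. Scaling by library size alone changed the calls over all genes in scion at 7 DAG from 4132 higher and 2779 lower to 5152 and 2171. Choosing members with a pseudocount of 1 kept 139 of the 200, by medians 154 and with scaled CPM 183. Many members had under 1 CPM in intact plants, where the depth allows a bound and no fold.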

Other observations

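Other gene lists of the supplementary tables hold few members. Of 68 genes tested that are described as MYB, LOB, NAC or WRKY factors, 38 were called higher in scion and 36 in rootstock at 7 DAG, with 2 and 0 lower. Of 108 lignin and lignan genes, 49 and 47 were called higher and 9 and 2 lower. Of 118 transporter genes, 36 and 30 were called higher and 7 and 8 lower. Of 67 cytochrome P450 genes, 32 and 22 were called higher and 7 and 1 lower. Of 35 flavonoid genes, none of them a member, 17 and 13 were called higher and 4 and 1 lower at 7 DAG, and 4 and 6 higher with 5 lower in each at 28 DAG. Of 39 auxin genes, none of them a member, 8 and 9 were called higher and 12 and 2 lower at 7 DAG. At 7 DAG, 10.8% and 7.55% of all genes were called higher in scion and rootstock, and 7.23% and 3.93% lower. These lists are partial and were drawn from descriptions of genes the study had called, so their directions are not independent evidence.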
